A study of Mus musculus with 6 samples.

Results

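The IL-17 receptor chains, the epithelial ligand Il17c, the adaptors that relay the receptor signal and the regulators induced in feedback form a set of 10 genes, taken here by gene symbol out of the 52550 Ensembl gene rows listed for each library. All 10 had exactly 1 row. Of the 8 that were expressed highly enough to test, 0 passed the test of a difference between atorvastatin-treated and control colon epithelium. Levels spanned a wide range, from about 0.12 FPKM for Il17rd to about 40 FPKM for Tnfaip3 (FPKM, fragment counts scaled to gene length and to the size of the library, is the deposited unit).

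The libraries came from isolated colon epithelial cells of adult male Apc Min/+ mice, which carry a truncating mutation in a single copy of the tumour suppressor gene Apc and develop intestinal adenomas. The atorvastatin group received this cholesterol-lowering statin at 20 mg/kg by oral gavage every other day, and the control group received the vehicle, 2% Tween 80, on the same scheme. All mice were 5 to 6 weeks old and Apc Min/+, so no library represents a wild-type colon, and the labels do not separate adenoma from normal epithelium. There were 3 numbered libraries in each group. Nothing in the labels ties the libraries to individual mice, so p-values describe library-to-library spread, which may be technical in part.

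IL-17 cytokines act on heteromeric receptors that share the chain IL-17RA. The adaptor Act1, encoded by Traf3ip2, binds the receptor through a domain found in both proteins and recruits the ubiquitin ligase TRAF6, which leads to NF-kB and MAP kinase signalling and, by a separate branch, to stabilisation of inflammatory mRNAs. The response is curbed by proteins that it induces itself, among them the ubiquitin-editing enzyme A20 and the endoribonuclease Regnase-1. In the gut this pathway supports epithelial defence and the transport of IgA, and in mice with Apc-deficient colon tumours IL-17RA signalling in the transformed epithelium is known to promote tumour growth.

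The isolates carried strong epithelial expression: the 7 epithelial markers, among them Epcam and Krt8, summed to 4247 to 4410 FPKM in the atorvastatin libraries and 4418 to 4615 FPKM in the control libraries. The mean was lower with atorvastatin for 6 of these 7. Krt8, the largest part of the sums, had means of 2700 FPKM with atorvastatin and 2822 FPKM in control. Its groups were apart (limma adjusted p = 0.710). Leukocyte markers were low by comparison, and most also had a lower mean with atorvastatin, although 0 of the markers in these lists passed the test over all genes. The 11 T and NK cell markers summed to 10.09 to 13.6 FPKM in the atorvastatin libraries and 14.4 to 24.0 FPKM in the control libraries. The mean was lower with atorvastatin for all 11, while Cd4 stayed below 1 FPKM throughout. Of the 7 tested, 6 had a limma unadjusted p under 0.05, where 12.0% of all tested genes did. Groups were apart for 3 of them, Lck, Gzmb and Nkg7, and for 18.1% of all tested genes. In the list of 11 macrophage, dendritic cell and granulocyte markers 10 had a lower mean with atorvastatin, and the sums were 20.8 to 27.5 FPKM with atorvastatin and 25.0 to 46.9 FPKM in control. Most of that sum was Ly6g, whose groups overlapped, while the macrophage marker Lyz2 averaged 1.151 FPKM with atorvastatin and 2.94 FPKM in control with groups apart. The 5 mast cell markers summed to 8.24 to 10.08 FPKM with atorvastatin and 13.1 to 25.1 FPKM in control. Most of the atorvastatin sum was Kit, at means of 7.16 FPKM with atorvastatin and 7.14 FPKM in control. The mast cell protease genes differed far more, with Mcpt1 at means of 1.38 FPKM with atorvastatin and 8.65 FPKM in control and Mcpt2 at 0.664 FPKM with atorvastatin and 4.43 FPKM in control. Both had groups apart, without passing (limma adjusted p = 0.072 and 0.172), and Cpa3 and Fcer1a were listed at 0 in every atorvastatin library and below 1 FPKM in control. In the list of 9 B and plasma cell markers the sums were 92.0 to 103.6 FPKM with atorvastatin and 105.6 to 115.5 FPKM in control. Most of these sums came from Sdc1 and Xbp1, which colon epithelium also expresses and whose groups overlapped. Igkc averaged 1.705 FPKM with atorvastatin and 5.75 FPKM in control, and Igha 0.562 FPKM with atorvastatin and 2.03 FPKM in control. These immunoglobulin genes had groups apart without passing (limma adjusted p = 0.1385 and 0.1133). Of the 9 markers, 5 had a lower mean with atorvastatin. The 9 stromal and endothelial markers summed to 1.78 to 2.37 FPKM with atorvastatin and 1.48 to 3.17 FPKM in control, with Kdr at 0 in every library. In bulk RNA of this kind, fewer cells of a type and less RNA per cell cannot be told apart. The part of these cells in the values of the IL-17 genes was not tested.

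The ligands that engage the receptor were at or near the floor. Il17a, the main product of type 17 lymphocytes, was listed at 0, 0.023 and 0.0923 FPKM in the atorvastatin libraries and at 0.0932, 0.0234 and 0.0204 FPKM in the control libraries. Il17f reached at most 0.0266 FPKM with atorvastatin and 0.135 FPKM in control, and Il17b and Il25 were listed at 0 in all 6 libraries. Il17d had 0.299, 0.200 and 0.155 FPKM with atorvastatin and 0.124, 0.130 and 0.134 FPKM in control. Its groups were apart, as for 18.1% of all tested genes. Il17d was too low to be tested, and with no filter its limma adjusted p was 0.688. Il23r and Il22, which mark type 17 and innate lymphocytes, likewise stayed below 1 FPKM in every library.

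Il17c, the family member that epithelial cells make themselves, was the most variable of the set. It had 1.29, 0.447 and 0.834 FPKM in the atorvastatin libraries and 0.377, 0.762 and 0.725 FPKM in the control libraries. The groups overlapped, and the highest value was 3.42 times the lowest. Il17c (ENSMUSG00000046108, chromosome 8, 122422020 to 122423639, plus strand) reached 1 FPKM in a single library and was therefore not tested with the other members. With no filter on low values its log2 fold change was 0.18 ± 0.19 (standard error), with a limma adjusted p of 0.795 and a 95% interval of -0.29 to 0.65. These values are on the log2(FPKM + 1) scale, where the added 1 shrinks the difference of so low a gene. The ratio of the mean FPKM values was 1.38. Depth is not known for FPKM values, so for a gene at this level the scatter of the libraries is the only guide to precision.

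Among the receptor chains, Il17rc far exceeded its partners. Il17ra, the shared signalling chain (ENSMUSG00000002897, chromosome 6, 120463247 to 120487559, plus strand), had 2.48, 2.26 and 2.13 FPKM with atorvastatin and 2.50, 2.50 and 2.18 FPKM in control. Il17rc, which pairs with it to bind IL-17A and IL-17F (ENSMUSG00000030281, chromosome 6, 113471427 to 113483140, plus strand), had 27.9, 30.1 and 27.5 FPKM with atorvastatin and 33.8, 29.7 and 31.3 FPKM in control. Il17rc was thus 11.3 to 14.3 times as abundant per length as Il17ra within a library, and it stood at the 88.0th percentile of mean level among the tested genes, against the 19.9th for Il17ra.

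Il17re, whose product pairs with IL-17RA to bind IL-17C (ENSMUSG00000043088, chromosome 6, 113458484 to 113470758, plus strand), had 2.60, 2.84 and 2.70 FPKM with atorvastatin and 3.08, 2.54 and 2.79 FPKM in control. Its level stayed close to that of Il17ra, at 1.02 to 1.28 times the Il17ra level in each of the 6 libraries. Il17rd, also called Sef, an antagonist of fibroblast growth factor signalling that also binds IL-17RA (ENSMUSG00000040717, chromosome 14, 27038941 to 27107286, plus strand), had 0.122, 0.108 and 0.133 FPKM with atorvastatin and 0.135, 0.114 and 0.131 FPKM in control. It was far below the filter of 1 FPKM and its groups overlapped. With no filter its log2 fold change was -0.0076 ± 0.032 (limma adjusted p = 0.95), on the log2(FPKM + 1) scale, which understates any change of so low a gene.

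Il17re and Il17rc are tandem neighbours, transcribed in the same direction with 668 bases between the annotated end of Il17re and the start of Il17rc, yet they differed about 11-fold in level. The 250 bases upstream of each RefSeq start are shown because these adjacent genes differ so widely in level. They come from the RefSeq promoter table for GRCm38.p6, plus strand, chr6:113458521-113458770 for Il17re and chr6:113471205-113471454 for Il17rc, and run 5′ to 3′. RefSeq and GENCODE place these starts differently. The Il17re window lies wholly inside the GENCODE span of the gene, downstream of its outermost start at 113458484. The last bases of the Il17rc window also pass its GENCODE start at 113471427. Capitals mark matches to an NF-kB-type motif, spelled GGAANNNCC and searched on both strands.
Il17re: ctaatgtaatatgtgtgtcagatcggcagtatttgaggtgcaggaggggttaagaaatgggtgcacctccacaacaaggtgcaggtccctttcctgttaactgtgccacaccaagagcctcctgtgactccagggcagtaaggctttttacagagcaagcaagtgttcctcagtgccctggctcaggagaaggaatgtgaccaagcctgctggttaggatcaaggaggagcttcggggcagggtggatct
Il17rc: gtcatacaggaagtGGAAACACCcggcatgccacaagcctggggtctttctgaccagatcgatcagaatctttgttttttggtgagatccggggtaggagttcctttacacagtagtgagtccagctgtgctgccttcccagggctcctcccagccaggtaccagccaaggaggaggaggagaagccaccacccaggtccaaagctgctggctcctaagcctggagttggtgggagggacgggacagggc
The Il17rc window held 1 match, from base -236 to base -228 counted from the start, and the Il17re window held none. The motif is common: 15.7% of all 32851 windows of this length in the table held at least 1 match. A match describes letters only.

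**Figure D1:**
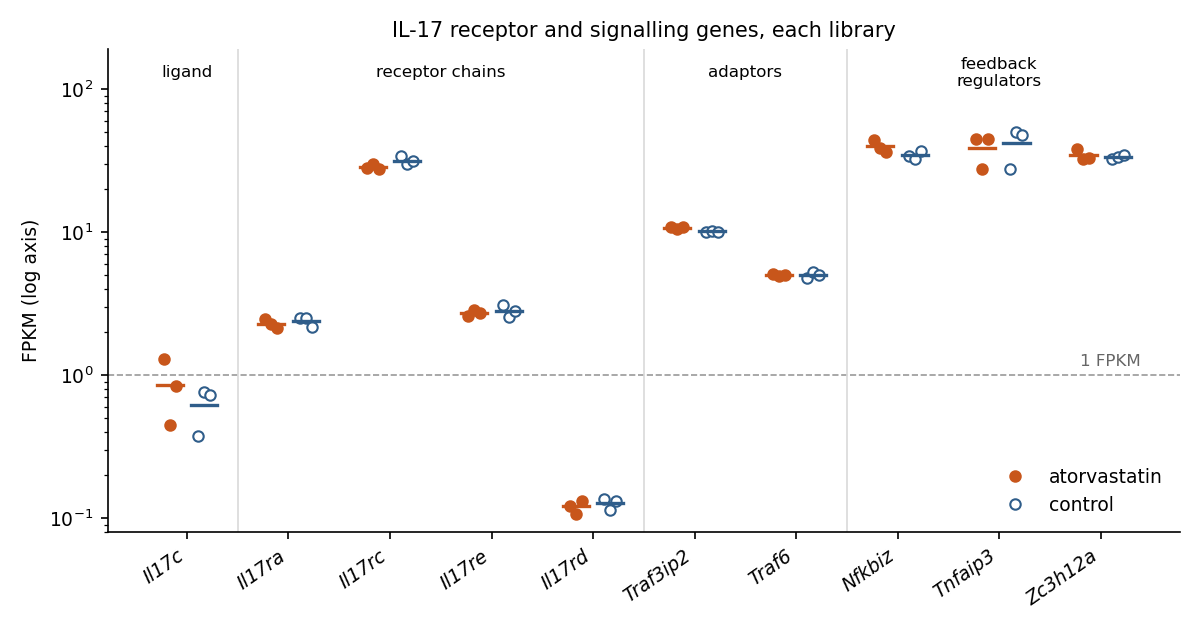
FPKM on a log axis of the 10 genes in each of 3 atorvastatin libraries (filled orange) and 3 control libraries (open blue), with bars for the group means and genes ordered by role. Il17rd and most values of Il17c lie below 1 FPKM, and the 3 feedback regulators and Il17rc sit together between 27.5 and 50.2 FPKM.

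The order of levels was stable. From highest to lowest mean over the 6 libraries it ran Tnfaip3, Nfkbiz, Zc3h12a, Il17rc, Traf3ip2, Traf6, Il17re, Il17ra, Il17c and Il17rd. The 4 most abundant genes had neighbouring ranges that overlapped, with means of 40.4, 37.1, 34.1 and 30.1 FPKM, so their order among themselves is not larger than the spread between libraries. Below Il17rc the range over the 6 libraries did not overlap that of the next gene for any neighbouring pair, and the higher gene was higher in 6 of 6 libraries each time. The closest such pair was Il17re and Il17ra, at means of 2.76 and 2.34 FPKM.

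No receptor chain passed the test of a difference between the groups. The comparison asks what the drug does to gene expression in the colon epithelium, and it was made with limma on log2(FPKM + 1) over all genes that reached 1 FPKM in 3 or more of the 6 libraries. Across the 11644 genes tested, 0.404% passed at a Benjamini-Hochberg adjusted p under 0.05. Of the 8 members tested, 0 passed, and 0 had an unadjusted p under 0.05. Il17rc averaged 28.5 ± 1.4 FPKM with atorvastatin and 31.6 ± 2.1 FPKM in control (SD, n = 3 each), with a log2 fold change of -0.14 ± 0.065 and a limma adjusted p of 0.451. Its groups overlapped, since atorvastatin replicate 2, at 30.1 FPKM, lay above control replicate 2, at 29.7 FPKM. The 95% interval of the Il17rc difference, -0.30 to 0.011 on the log2 scale, corresponds to between 0.814 and 1.01 times the control level on the FPKM + 1 scale. For Il17ra the log2 fold change was -0.044 ± 0.073, with an interval of -0.22 to 0.13 (limma adjusted p = 0.871), and it ran from -0.090 without control replicate 3 to -0.0086 without atorvastatin replicate 3. For Il17re it was -0.032 ± 0.072, with an interval of -0.20 to 0.14 (limma adjusted p = 0.91), and its sign turned to 0.019 without control replicate 1.

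The adaptors were the steadiest members. Traf3ip2, which encodes Act1 (ENSMUSG00000019842, chromosome 10, 39612934 to 39655307, plus strand), had 10.85, 10.59 and 10.81 FPKM with atorvastatin and 10.03, 10.25 and 10.02 FPKM in control. All atorvastatin libraries lay above all control libraries, the only tested member whose groups were apart. Among all tested genes 18.1% had groups apart. The means were 10.75 ± 0.14 FPKM with atorvastatin and 10.1 ± 0.13 FPKM in control (SD, n = 3 each), a ratio of 1.06. The log2 fold change of 0.082 ± 0.046 did not pass (limma adjusted p = 0.547, 95% interval -0.026 to 0.19). Only 0.4% of the tested genes had a smaller within-group spread of log2 values than Traf3ip2. Exons of the antisense gene E130307A14Rik overlap those of Traf3ip2, but it reached at most 0.291 FPKM, and the strand setting of the quantification was not given in the sources used here.

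Traf6, the ubiquitin ligase that Act1 recruits (ENSMUSG00000027164, chromosome 2, 101678429 to 101701669, plus strand), had 5.10, 4.90 and 4.98 FPKM with atorvastatin and 4.74, 5.25 and 4.97 FPKM in control. The groups overlapped around nearly equal means of 4.99 ± 0.10 FPKM with atorvastatin and 4.99 ± 0.25 FPKM in control (SD, n = 3 each). The log2 fold change was 0.0023 ± 0.057 (limma adjusted p = 0.993, 95% interval -0.13 to 0.14), and its sign turned under 4 of 4 other scalings and without atorvastatin replicate 1 or control replicate 1.

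Ratios within a library remove the library's own scaling. Of 7 ratios between pathway genes computed after the values were seen, 2 had groups that did not overlap. How often this holds for ratios of other gene pairs was not computed. Among single tested genes 18.1% had groups apart. Il17rc per Il17re was 10.75, 10.61 and 10.18 with atorvastatin and 10.99, 11.69 and 11.23 in control. Traf3ip2 per Traf6 was 2.13, 2.16 and 2.17 with atorvastatin and 2.12, 1.96 and 2.01 in control. An exact two-sided permutation test of 3 libraries against 3 cannot give a p below 0.1, so these ratios are given as values, and no other test was run on them. Il17rc per Il17ra, at 12.5 ± 1.1 with atorvastatin and 13.3 ± 1.3 in control (SD, n = 3 each), and Il17re per Il17ra, at 1.19 ± 0.12 with atorvastatin and 1.18 ± 0.14 in control, overlapped between the groups.

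**Figure D2:**
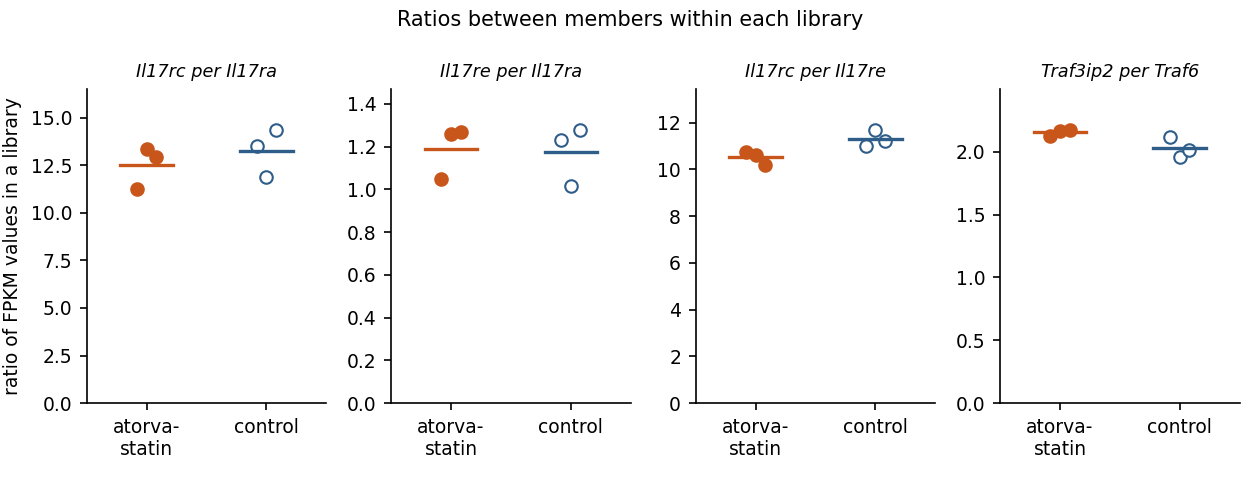
Ratios of FPKM values within each library for 4 gene pairs, with 3 atorvastatin libraries (filled orange) left of 3 control libraries (open blue) and bars for the means; every axis starts at 0. Il17rc per Il17re and Traf3ip2 per Traf6 do not overlap between the groups, and the Il17rc per Il17ra ratio lies between 11.3 and 14.3 in all 6 libraries.

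The feedback regulators were the most abundant members. Nfkbiz, which encodes the inducible nuclear NF-kB cofactor IkappaB-zeta (ENSMUSG00000035356, chromosome 16, 55811375 to 55838899, minus strand), had 44.2, 38.9 and 36.1 FPKM with atorvastatin and 34.2, 32.5 and 36.7 FPKM in control. The 2 groups overlapped only through atorvastatin replicate 3 and control replicate 3. Nfkbiz had the largest difference of the tested members, with means of 39.7 ± 4.2 FPKM with atorvastatin and 34.5 ± 2.2 FPKM in control (SD, n = 3 each) and a log2 fold change of 0.20 ± 0.085. It did not pass (limma adjusted p = 0.422), and its 95% interval ran from -0.0038 to 0.40. Without atorvastatin replicate 1 the log2 fold change was 0.12, and without atorvastatin replicate 3 it was 0.26.

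Zc3h12a encodes Regnase-1, which cleaves inflammatory transcripts, Nfkbiz mRNA among its known targets (ENSMUSG00000042677, chromosome 4, 125118423 to 125127840, minus strand). It had 37.9, 32.5 and 33.1 FPKM with atorvastatin and 32.7, 33.7 and 34.9 FPKM in control. Atorvastatin replicate 1 was the highest library and the others lay within the control range or just below it. The log2 fold change was 0.028 ± 0.069 (limma adjusted p = 0.919, 95% interval -0.13 to 0.19), and it turned to -0.038 without atorvastatin replicate 1.

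Tnfaip3, which encodes A20, varied between libraries of the same group far more than any other tested member. Tnfaip3 (ENSMUSG00000019850, chromosome 10, 19000910 to 19015657, minus strand) had 44.6, 27.7 and 44.9 FPKM with atorvastatin and 27.8, 50.2 and 47.6 FPKM in control. A single library in each group was low, atorvastatin replicate 2 and control replicate 1, and the other 4 libraries lay between 44.6 and 50.2 FPKM. Traf6 and Zc3h12a were also lowest of each group in those libraries, by smaller margins. So was Il17c, which was not tested, at 0.447 FPKM in atorvastatin replicate 2 and 0.377 FPKM in control replicate 1. The group means were 39.0 ± 9.9 FPKM with atorvastatin and 41.9 ± 12.2 FPKM in control (SD, n = 3 each). The log2 fold change of -0.085 ± 0.28 had a limma adjusted p of 0.937, and the 95% interval of -0.75 to 0.58 admits between 0.595 and 1.49 times the control level. Leaving out control replicate 1 gave -0.35, and leaving out atorvastatin replicate 2 gave 0.14. The sign also turned without control replicate 2, to 0.065, and without control replicate 3, to 0.028. The within-group spread of its log2 values exceeded that of 98.4% of the tested genes.

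RefSeq lists 2 starts for Tnfaip3, and the 250 bases upstream of each are shown because this gene carries the largest spread among the tested members and is itself a known NF-kB target. Both windows are on the minus strand of GRCm38.p6, chr10:19015411-19015660 for the outer start and chr10:19011964-19012213 for the inner start, written 5′ to 3′ with matches to GGAANNNCC on either strand in capitals.
Tnfaip3 outer start: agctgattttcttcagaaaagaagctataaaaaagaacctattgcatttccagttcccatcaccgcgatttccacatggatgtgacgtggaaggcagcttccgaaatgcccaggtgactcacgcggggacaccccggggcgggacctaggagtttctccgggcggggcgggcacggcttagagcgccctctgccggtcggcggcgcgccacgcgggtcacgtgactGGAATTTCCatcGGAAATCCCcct
Tnfaip3 inner start: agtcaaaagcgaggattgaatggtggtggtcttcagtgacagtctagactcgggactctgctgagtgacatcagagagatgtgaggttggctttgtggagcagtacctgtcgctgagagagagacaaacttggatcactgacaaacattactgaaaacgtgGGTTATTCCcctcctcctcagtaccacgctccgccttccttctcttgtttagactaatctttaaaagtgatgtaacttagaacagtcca
The outer window held 2 matches close to the start, GGAATTTCC from base -24 to base -16 and GGAAATCCC from base -12 to base -4. The inner window held 1, GGTTATTCC from base -89 to base -81. Apart from its outermost bases, the outer window lies inside the GENCODE span of Tnfaip3, and the inner window lies wholly inside it. These matches are thus downstream of the outermost GENCODE start, at 19015657. Of the 10 genes, 7 had windows in the table, and the windows of Il17c, Il17rd, Traf6 and Zc3h12a held no match. Il17ra, Traf3ip2 and Nfkbiz had no entry. A sterol element-type motif, spelled TCACNCCAC and searched on both strands, had no match in any of these 8 windows and a match in 1.05% of all windows.

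The low libraries of Tnfaip3 were also the lowest of their groups, by smaller margins, for some of the genes that respond quickly to stress and to cell isolation. Of 14 dissociation and immediate early genes, 7 had their lowest value of each group in the same libraries as Tnfaip3, namely Fos, Jun, Atf3, Dusp1, Btg2, Klf6 and Nr4a1, against 6.91% of all 11644 tested genes. The differences were smaller than that of Tnfaip3: atorvastatin replicate 2 stood at 0.618 times the mean of the other atorvastatin libraries for Tnfaip3 and at 0.877 times for Klf6, and control replicate 1 stood at 0.569 times the mean of the other control libraries for Tnfaip3 and at 0.844 times for Klf6. Fos, counted among the 7, stood at only 0.950 times in atorvastatin replicate 2 and 0.992 times in control replicate 1. Ier3 was higher in both low libraries, at 1.09 times in atorvastatin replicate 2 and 1.153 times in control replicate 1, and Egr1 was not lower in atorvastatin replicate 2, nor Junb in control replicate 1. Hspa1a and Hspa1b, near-identical heat shock genes whose reads may be shared, did not follow this order, with the lowest value of the atorvastatin group in replicate 1. The same 2 libraries had the lowest FPKM totals of their groups, 407857 with atorvastatin and 411364 in control, and the lowest shares of mitochondrially encoded transcripts, 30.3% with atorvastatin and 30.6% in control, in ranges of 30.3% to 33.2% with atorvastatin and 30.6% to 32.7% in control. The part of cell isolation or library composition in the Tnfaip3 values was not tested.

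**Figure D3:**
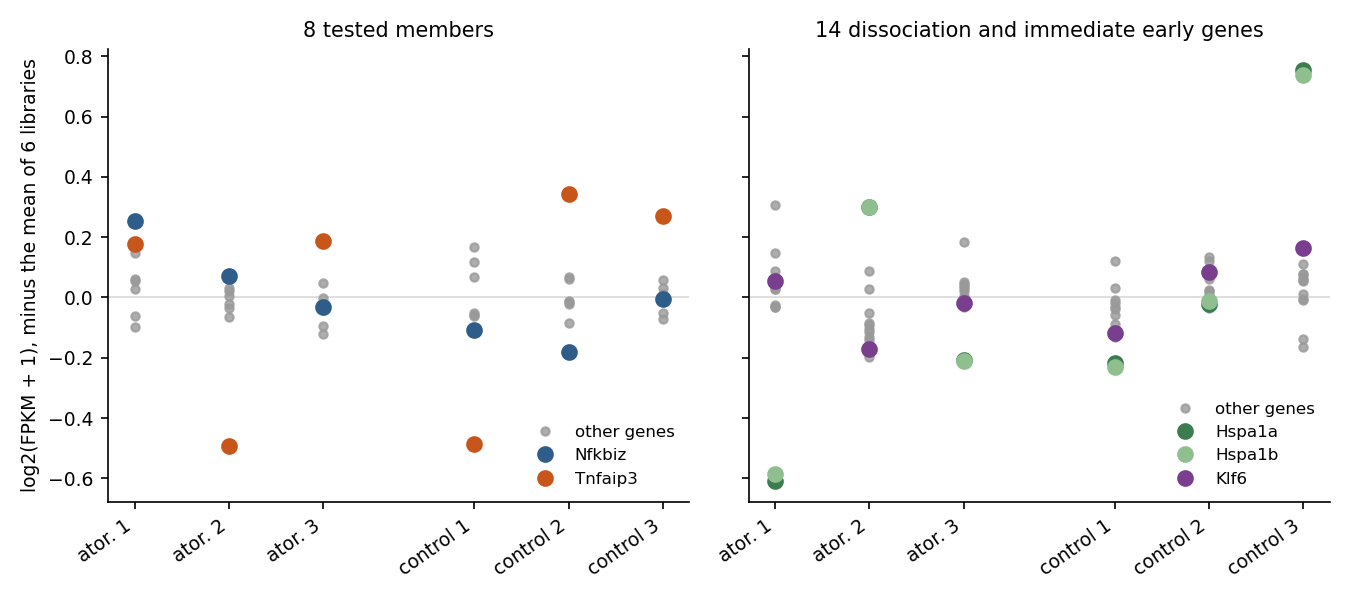
Level of each gene in each library as log2(FPKM + 1) minus the gene's mean over the 6 libraries, for the 8 tested members (left) and 14 dissociation and immediate early genes (right), atorvastatin libraries before control libraries. Tnfaip3 lies well below its mean in atorvastatin replicate 2 and control replicate 1, Klf6 is lower there by less, and the other members stay closer to their means.

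Profiles close to those of 3 members were sought over the 6 libraries by the root mean square difference of centred log2(FPKM + 1) values. For Il17ra the nearest of 11643 genes were Dgkd, Ccdc50 and A530017D24Rik, at 0.0167 to 0.0193 log2 units, against a median of 0.112 over all genes compared. For Nfkbiz they were Nemp1, Ass1 and Gusb, at 0.0268 to 0.0393, against a median of 0.157. For Tnfaip3, which was added after its values were seen, they were Itgav, Hnrnpc and Cryz, at 0.0902 to 0.117, against a median of 0.377. Hnrnpc, an abundant RNA-binding protein gene, had 60.1, 38.1 and 55.7 FPKM with atorvastatin and 43.5, 65.4 and 64.8 FPKM in control, low in the same 2 libraries as Tnfaip3.

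The wider pathway gave no call either. The 5 lists chosen for their roles held 59 further genes, of which 40 were tested, 18 with positive and 22 with negative fold changes. None passed over all genes with limma (0 of 40), and 7 had an unadjusted p under 0.05, where 12.0% of all tested genes did. The groups were apart for 8 of the 40, 4 higher and 4 lower with atorvastatin, close to the 18.1% of all tested genes. The median log2 fold change was -0.017 over these 40 genes and -0.015 over the 8 tested members, beside 0.018 over all tested genes.

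In the NF-kB and C/EBP arm, which turns the TRAF6 signal into transcription, 13 of 14 genes were tested, 5 positive and 8 negative. Cebpb, a transcription factor gene that IL-17 induces, had 1.21, 1.21 and 1.25 FPKM with atorvastatin and 2.07, 1.94 and 1.62 FPKM in control, with no overlap. Its log2 fold change was -0.37 ± 0.079 (limma adjusted p = 0.127) on the log2(FPKM + 1) scale, where the added 1 shrinks the value of so low a gene: it was -0.57 with a pseudocount of 0.1, and the ratio of the mean FPKM values was 0.653. Its relative Cebpd had the opposite sign, with 4.84, 4.56 and 5.46 FPKM with atorvastatin and 3.24, 4.48 and 3.73 FPKM in control, or 0.31 ± 0.11 as log2 fold change (limma adjusted p = 0.312). Nfkbia, the NF-kB inhibitor gene that NF-kB itself induces, had 184.1, 158.6 and 168.1 FPKM with atorvastatin and 148.0, 152.8 and 145.5 FPKM in control, or 0.19 ± 0.067 as log2 fold change (limma adjusted p = 0.326). The groups did not overlap for these 3 genes, yet none passed. Traf2 and Chuk also had groups apart, with log2 fold changes of -0.098 and 0.068 (limma adjusted p = 0.581 and 0.62). Of the 13 tested genes in this arm, 3 were thus apart and higher and 2 apart and lower with atorvastatin. Among all tested genes 18.1% had groups apart. Nfkb1, which encodes an NF-kB subunit, overlapped between the groups at -0.11 ± 0.065 on the log2 scale (limma adjusted p = 0.567).

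All 8 other negative regulators were tested, 3 positive and 5 negative, with log2 fold changes of -0.14 to 0.066. Ikbke, which encodes the kinase IKK-epsilon that phosphorylates Act1, had 5.44, 5.50 and 5.46 FPKM with atorvastatin and 6.17, 6.42 and 5.79 FPKM in control, with no overlap and a limma adjusted p of 0.385. Tnip1, Cyld and Traf3, whose products restrain NF-kB or receptor signalling, had log2 fold changes of -0.10, 0.066 and -0.084 with overlapping groups. Of 9 factors that stabilise or degrade mRNA, 6 were tested, with log2 fold changes of -0.069 to 0.16. Rc3h2 and Rc3h1, which encode the Roquin proteins that act on the same kind of stem-loops as Regnase-1, had 0.16 and 0.032, the Regnase relative Zc3h12d had -0.069, and Zfp36, a decay factor gene at 257 to 312 FPKM with atorvastatin and 271 to 283 FPKM in control, had 0.020.

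Of 22 genes known as epithelial IL-17 outputs, 13 were tested, 6 positive and 7 negative. Nox1, an epithelial NADPH oxidase gene, had 11.2, 11.85 and 9.50 FPKM with atorvastatin and 8.62, 7.87 and 9.25 FPKM in control, or 0.31 ± 0.091 as log2 fold change (limma adjusted p = 0.248). Saa1, which encodes a serum amyloid A protein, had 33.3, 45.9 and 36.1 FPKM with atorvastatin and 84.4, 49.1 and 48.2 FPKM in control, or -0.61 ± 0.23 as log2 fold change (limma adjusted p = 0.379). These 2 genes had groups apart, in opposite directions. The Saa1 difference leaned on its highest library, and without control replicate 1 its log2 fold change was -0.35. Ccl20, a chemokine gene, and Cxcl5, a neutrophil attractant gene, had log2 fold changes of 0.23 and 0.21 with limma adjusted p of 0.373 and 0.652. The Cxcl5 value was 0.10 without control replicate 1 and 0.36 without control replicate 3 (limma adjusted p = 0.888 and 0.196). Over the tested output genes the median log2 fold change was -0.018, in a range of -0.61 to 0.31. Other output genes were well expressed with overlapping groups. Over the 6 libraries Pigr averaged 1240 FPKM, Plet1 25.8 FPKM, Fut2 23.4 FPKM, Reg3b 13.4 FPKM and Cxcl1 12.35 FPKM. Of the 22 genes, 9 stayed below 1 FPKM in all 6 libraries, among them Lcn2, S100a8, S100a9, Csf3 and Il6.

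**Figure D4:**
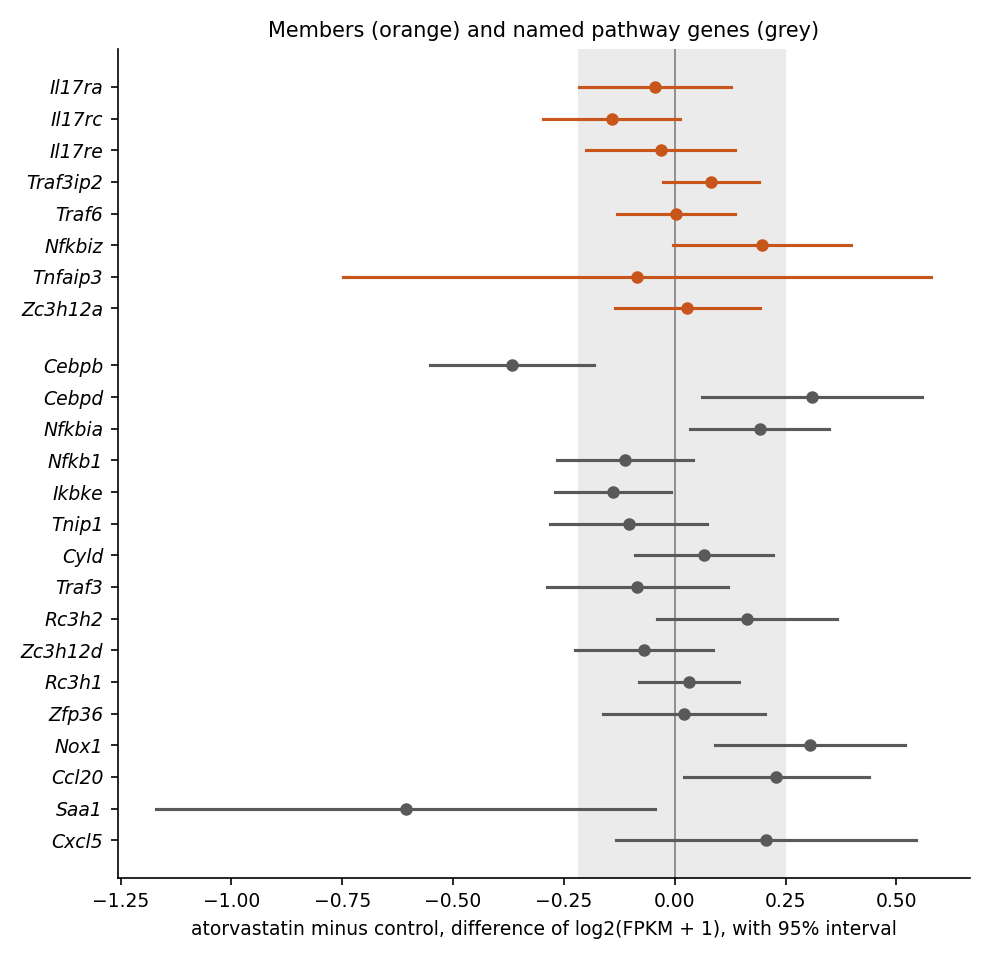
Difference of log2(FPKM + 1), atorvastatin minus control, with 95% intervals from limma for the 8 tested members (orange) and 16 named pathway genes (grey); the shaded band holds the middle 90% of all tested genes, from -0.22 to 0.25. The intervals of all 8 members include 0, and that of Tnfaip3 is by far the widest among them.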

How the data were processed

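RNA from isolated colon epithelial cells was sequenced in 3 atorvastatin and 3 control libraries. The authors deposited FPKM values, 1 per gene and library; the unit was read from the values, whose totals differ between libraries (407857 to 430832) and are not whole numbers. The submitters' processing notes name Bowtie, FastQC 0.11.2 and the build mm10; how fragments were quantified, on which annotation and with which strand setting, is not given in the sources used here. FPKM carries no read totals, so depth is unknown and no counting interval is given. Gene symbols came from a table that named 99.72% of the identifiers, coordinates from GENCODE M21 (GRCm38, which mm10 denotes), promoter windows from RefSeq. The 11644 genes that reached 1 FPKM in 3 or more libraries were compared as log2(FPKM + 1) with limma 3.58.1 in R 4.3.3 (trended, robust empirical Bayes, two-sided, Benjamini-Hochberg adjustment over all tested genes, threshold 0.05). The procedure was first tested on simulated data. Errors are standard errors for fold changes and SDs for FPKM. The members and lists were chosen with earlier results of these data known. All members are named, together with the 4 smallest p-values of each pathway list and the 3 closest profiles of Il17ra and Nfkbiz. Alternatives covered pseudocount, filter, scaling, variance model, a replicate block and leaving out each library. A marker on the lists is not reported here.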

Additional observations from a re-analysis of the deposited data

How the results depend on the processing

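Under 16 alternatives 0 of the tested members and 0 of the pathway genes passed, with member adjusted p of 0.309 to 0.997. Il17rc had an unadjusted p under 0.05 in 6 alternatives, its log2 fold change running from -0.18 to -0.094, and Nfkbiz in 2, running from 0.12 to 0.26. The count over all genes was 47, but 2 with no filter, 1 with the replicate block and 2 to 67 with a library left out: 13, 61 and 17 without atorvastatin replicates 1, 2 and 3, and 2, 30 and 67 without control replicates 1, 2 and 3. Near 0 the sign of Traf6 turned, to -0.0023 with upper-quartile scaling, -0.017 with median-ratio scaling, -0.022 with quantile normalization and -0.013 with the 20 most abundant and mitochondrial genes left out, and that of Zfp36, to -0.0028 with median-ratio scaling. With a library left out the log2 fold changes ran from -0.028 to 0.033 for Traf6, -0.35 to 0.14 for Tnfaip3, -0.082 to 0.019 for Il17re, -0.056 to 0.083 for Zfp36 and -0.038 to 0.068 for Zc3h12a. Without a sign change they ran from -0.090 to -0.0086 for Il17ra, 0.10 to 0.36 for Cxcl5, 0.033 to 0.11 for Cyld, -0.16 to -0.052 for Tnip1, -0.14 to -0.0065 for Traf3, 0.020 to 0.055 for Rc3h1, 0.086 to 0.21 for Rc3h2, -0.11 to -0.030 for Zc3h12d and -0.16 to -0.063 for Nfkb1. A filter of 5 FPKM in 3 libraries left Il17ra, Il17re and Traf6 untested, since none of them reached that level in enough libraries. The cause of the shifts between settings was not tested. The number of tested members whose groups did not overlap was 1, and 1 to 3 with a library left out and 2 with upper-quartile scaling or with the abundant genes left out. Libraries with the same replicate number did not deviate together (correlations of -0.139, -0.106 and 0.014 across genes), and none correlated best with its own number. These values give no sign that the numbers pair the samples. Deviations from a mean of 3 libraries are tied to one another, so this check cannot exclude a pairing. The replicate block called none of the members (0).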
